A study of Homo sapiens with 42 samples.

Results

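The genes described here are 10 members and targets of the TGF-β superfamily in 786-O cells, a line derived from a clear cell renal cell carcinoma that has lost the ubiquitin ligase subunit VHL, so that HIF-2α is stable, and that makes no functional HIF-1α. They were chosen by name, as the rows of the count tables with the symbols TGFB1, TGFB2, TGFB3, INHBA, INHBB, INHBE, BMP2, FST, SMAD7 and TGFBI, which are 10 of the 60609 genes counted. Poly-A RNA-seq was available for 42 libraries in 2 batches, with 3 biological replicates in each group. The first batch held 9 groups and the second 5, and each batch had its own unedited WT cells. RNA extraction and library preparation differed between the batches, so levels were compared only within a batch. 

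All groups share the VHL-deficient background and the endogenous HIF-2α. Batch 1 held WT cells, a HIF-1β KIN line and a HIF-2α KIN line, each a single clone in which both alleles carry a V5-Halo tag at the N-terminus of the endogenous protein. The 6 other groups of this batch were WT cells with a stably integrated transgene under the weak L30 promoter, which encoded V5-Halo-tagged HIF-1α, HIF-1α R30E, HIF-1αDM, HIF-2α, HIF-2α R27E or HIF-2αDM. R30E and R27E are mutations of the DNA-binding domain, and DM stands for mutants of the interface with HIF-1β. In batch 2, WT cells were set beside L30-driven lines with HIF-1α, HIF-2α and both domain swaps. HIF-1α/2α joins the structured DNA-binding and dimerization domains of HIF-1α to the C-terminal intrinsically disordered region (IDR) of HIF-2α, and HIF-2α/1α is the converse. Transgene expression varied from cell to cell in such lines, which were selected with puromycin after transposition, with no cloning step described. For the HIF-2αDM samples the genotype label names HIF-1α, while title and description name HIF-2α, which was followed here. In bulk RNA, fewer expressing cells and less RNA per cell cannot be told apart.

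TGF-β ligands and activins are secreted dimers that bind pairs of type I and type II serine/threonine kinase receptors, which phosphorylate SMAD2 and SMAD3. BMP ligands use related receptors and SMAD1, SMAD5 and SMAD9, and both branches share SMAD4. The ligands are held in check outside the cell by latency proteins and by antagonists such as follistatin, and inside it by the inhibitory SMADs, which are themselves induced by the pathway. HIF dimers bind DNA at hypoxia response elements with a short core sequence.

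The libraries held 42377599 to 101186554 counted reads in batch 1 and 76366799 to 109642159 in batch 2, and in batch 1 those numbered 3 were the deepest. The transgenes were visible in the counts: HIF1A had a mean normalized count (the count scaled to a common library size within the batch) of 242 in WT cells and 3038 in the HIF-1α line of batch 1, and EPAS1, which encodes HIF-2α, had 14498 in WT cells and 44694 in the HIF-2α line. HIF1A also stood at 910 in that HIF-2α line, and EPAS1 at 6177 in the HIF-2α KIN clone. The renal carcinoma markers PAX8, PAX2, KRT8, KRT18 and VIM were present in every group. Of the markers of other cell types, CD3E was 0 in every group, DCN and PDGFRA had group means of at most 4.95, and COL1A1 was present, with group means of 548 to 1909. LUM, another fibroblast marker, had group means of 2.76 to 72.3 in batch 1 and 5.20 to 222 in batch 2, and CD14 reached 31.3. The part of these in the results was not tested.

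In WT cells of batch 1, the order of the genes by level per length of exon (TMM-normalized CPM per kilobase) was TGFBI with 371 ± 35.3, TGFB1 with 79.5 ± 20.4, INHBB with 65.3 ± 14.7, TGFB2 with 34.4 ± 7.97, SMAD7 with 12.3 ± 1.21, INHBA with 7.46 ± 0.545, BMP2 with 4.40 ± 0.759, INHBE with 1.96 ± 0.521 and TGFB3 with 0.339 ± 0.0340 (SD, n = 3). FST had no read in these libraries. The neighbours TGFB1 and INHBB differed by less than their summed SDs, and the other neighbours by more. On the same scale, WT cells of batch 2 kept this order apart from INHBA (12.5 ± 1.05), which there stood above SMAD7 (7.51 ± 0.0603).

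The promoters of 5 of the 6 genes called in both batches are shown here (the table has no entry for INHBE), because HIF lines are compared, and the core of a hypoxia response element, ACGTG or GCGTG on either strand, can be looked for in them. The windows are the 250 bases before the annotated start (RefSeq, GRCh38.p14), printed 5′ to 3′ on the strand of the gene, with each core in capitals (CACGT and CACGC are the cores on the other strand, and CACGTG holds 2 overlapping cores). They lie at chr19:41353923-41354172 on the minus strand for TGFB1, chr1:218345086-218345335 on the plus strand for TGFB2, chr7:41703091-41703340 on the minus strand for INHBA, chr2:120345886-120346135 on the plus strand for INHBB and chr5:136028738-136028987 on the plus strand for TGFBI.
TGFB1: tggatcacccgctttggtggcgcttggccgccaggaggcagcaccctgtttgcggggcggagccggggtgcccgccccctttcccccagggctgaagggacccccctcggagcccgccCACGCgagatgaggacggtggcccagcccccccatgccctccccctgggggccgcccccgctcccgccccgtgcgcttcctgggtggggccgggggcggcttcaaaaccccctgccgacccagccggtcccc
TGFB2: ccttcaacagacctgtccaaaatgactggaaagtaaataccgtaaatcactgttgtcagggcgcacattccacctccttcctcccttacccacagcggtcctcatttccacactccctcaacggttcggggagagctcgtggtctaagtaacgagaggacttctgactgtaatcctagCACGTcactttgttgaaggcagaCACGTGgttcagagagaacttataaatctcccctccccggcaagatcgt
INHBA: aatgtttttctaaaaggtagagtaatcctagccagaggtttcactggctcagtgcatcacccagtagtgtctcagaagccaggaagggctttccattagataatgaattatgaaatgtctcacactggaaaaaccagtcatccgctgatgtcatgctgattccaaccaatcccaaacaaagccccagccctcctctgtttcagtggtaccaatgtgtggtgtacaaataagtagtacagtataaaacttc
INHBB: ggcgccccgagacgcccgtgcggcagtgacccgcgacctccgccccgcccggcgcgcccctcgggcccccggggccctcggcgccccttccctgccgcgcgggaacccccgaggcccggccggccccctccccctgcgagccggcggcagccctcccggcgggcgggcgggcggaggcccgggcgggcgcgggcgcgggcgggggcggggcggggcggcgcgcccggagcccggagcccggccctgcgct
TGFBI: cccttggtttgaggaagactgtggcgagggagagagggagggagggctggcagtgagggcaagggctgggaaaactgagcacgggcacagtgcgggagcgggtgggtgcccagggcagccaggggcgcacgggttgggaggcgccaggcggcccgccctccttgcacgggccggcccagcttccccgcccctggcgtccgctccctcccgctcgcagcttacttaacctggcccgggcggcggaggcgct
TGFB2 had 3 cores, 72, 49 and 48 bases before its start, and TGFB1 had 1, 132 bases before it. No core was in the windows of INHBA, INHBB and TGFBI, which says only that these letters are absent from these windows. The INHBA window lies inside the span of the gene in GENCODE, which begins on the minus strand at 41705834, and the bases before that start were not searched. Of the 8 genes found in the promoter table, which lists several starts for TGFB3 and SMAD7, 4 had a core in at least 1 window: TGFB1, TGFB2, TGFB3 and SMAD7. Of all 35116 promoters in the table, a share of 43.2% held a core, so that its presence is a description of the sequence and not a mark of these genes. BMP2 had no entry either.

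A gene was called here when it differed by at least 2-fold with an adjusted p of at most 0.01 (edgeR's quasi-likelihood test, Benjamini-Hochberg adjustment over all genes tested). All comparisons with WT cells of a batch share the same 3 WT libraries. The 10 genes were chosen with earlier results of these data known, so their numbers of calls beside the share of all genes are a description. All genes tested include those averaging as few as 0.5 normalized counts. The HIF-2α line had the most calls in both batches. In batch 1, 6 of the 10 genes were called there, against 5.72% of all 23410 genes tested. TGFB1, INHBB and TGFBI were higher (3.78% of all genes were called higher) and TGFB2, INHBA and INHBE lower (1.94% lower). In batch 2 the HIF-2α line gave calls for these 6 genes again, in the directions of batch 1, where 7.58% of 28724 genes were called (5.45% higher and 2.13% lower). The HIF-1α/2α line had 4 calls, with TGFB1 higher and TGFB2, INHBA and INHBE lower, where 7.78% of all genes were called (5.1% higher and 2.68% lower).

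Other lines had fewer calls among the 10 genes. The HIF-1α line had INHBA and INHBE lower in batch 1 (3.79% of all genes called) and INHBE lower in batch 2 (4.39%). INHBE was the only gene of the set called in the HIF-1β KIN clone (1.38% of all genes), the HIF-1α R30E line (2.61%), the HIF-2α R27E line (0.496%) and the HIF-2α/1α line (3.49%). The HIF-2α KIN clone had 2 calls, INHBA and INHBE, both lower (4.14%). No member was called in the HIF-1αDM line (0.457%) or the HIF-2αDM line (0.474%), in each of which 1 gene, INHBE, had an unadjusted p under 0.05, and DESeq2 called it in the former (1 call) and not in the latter (0 calls). The median log2 change of the set without FST was -0.36 in the HIF-2α line of batch 1 and -0.43 in that of batch 2, where the medians of all genes were -0.09 and 0.07. In these medians the genes that rose and those that fell offset each other.

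**Figure D1:**
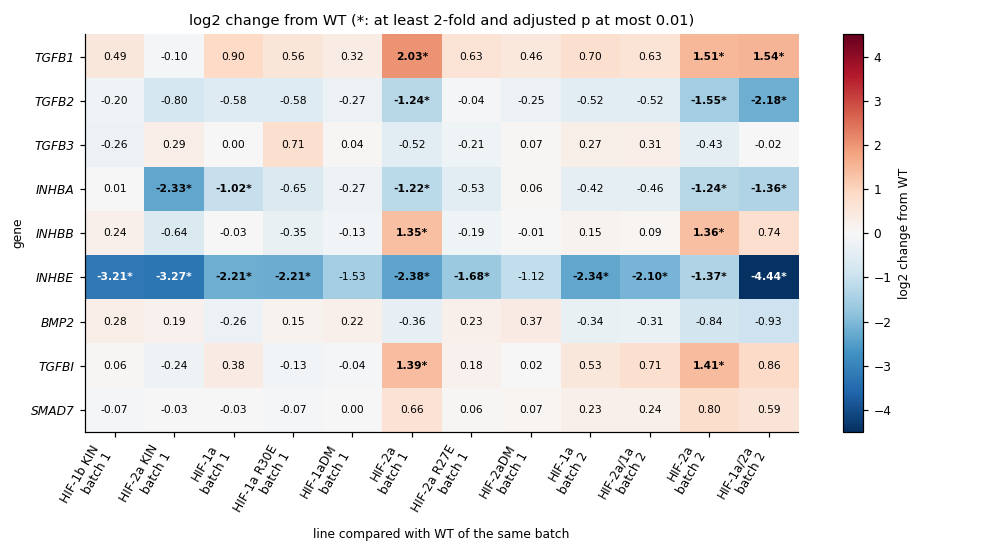
Fitted log2 change of 9 genes (rows) from the WT cells of the same batch in 12 comparisons (columns), with HIF-1α and HIF-2α present in both batches. It is given in colour and as a number, with an asterisk where a gene was called. The HIF-2α columns of both batches hold asterisks for the same 6 genes, from 2.03 for TGFB1 in batch 1 to -2.38 for INHBE in batch 1, and INHBE is negative in every column. FST, which had 0 to 13 counts in any library, is not drawn.

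TGFB1 encodes TGF-β1, the most widely expressed TGF-β ligand (chromosome 19, 41301587 to 41353922, minus strand, hg38). Its normalized counts in batch 1 were 13403, 16649 and 22258 in the WT libraries and 68249, 66013 and 78937 in the HIF-2α libraries. The lowest HIF-2α library was thus above the highest of every other group of the batch, the next being a HIF-2α R27E library with 41367. The difference from WT was 4.08-fold, a log2 change of 2.03 ± 0.29 (SE, adjusted p = 1.43e-05). In batch 2, WT libraries held 19218, 18528 and 18804, HIF-2α libraries 58058, 53142 and 49444, and HIF-1α/2α libraries 51985, 55624 and 56303. The last 2 groups did not overlap with WT and overlapped with each other, with log2 changes of 1.51 ± 0.06 (adjusted p = 6.80e-26) and 1.54 ± 0.06 (adjusted p = 2.98e-26) from WT. Lines with the HIF-1α IDR had smaller differences from WT, of 0.70 ± 0.06 for HIF-1α and 0.63 ± 0.06 for HIF-2α/1α (adjusted p = 3.51e-14 and 1.56e-12), which did not reach 2-fold. In batch 1 the HIF-1α line had 0.90 ± 0.29 (adjusted p = 0.0510). Exons of TGFB1 overlap those of HNRNPUL1, and reads were counted without strand, so the counts of a shared stretch are uncertain.

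TGFB2 encodes TGF-β2 (chromosome 1, 218345336 to 218444619, plus strand), and its promoter is the one above with 3 cores. It moved opposite to TGFB1 in the HIF-2α lines. WT libraries of batch 1 held 11405, 12875 and 17605 normalized counts and HIF-2α libraries 3913, 5734 and 8051. Groups did not overlap, and the fitted change was -1.24 ± 0.25 (adjusted p = 0.000884), which is 2.37-fold lower. Without HIF-2α replicate 1 of batch 1, the lowest library, the change was -1.02 with an adjusted p of 0.0122. The libraries of the HIF-2α KIN clone and of HIF-1α R30E also lay wholly below WT. Neither was called (-0.80 ± 0.25 and -0.585 ± 0.247, adjusted p = 0.0360 and 0.211), and TGFB1 differed from WT by -0.10 ± 0.28 in that clone. In batch 2 the counts were 20304, 21194 and 20428 in WT libraries, 6419, 6447 and 8268 in HIF-2α libraries, and 4526, 4402 and 4738 in HIF-1α/2α libraries. These groups separated completely, with HIF-1α/2α the lowest. The changes from WT were -1.55 ± 0.07 for HIF-2α and -2.18 ± 0.07 for HIF-1α/2α (adjusted p = 6.46e-24 and 3.62e-29). HIF-1α and HIF-2α/1α lines of batch 2 had 14302 to 14395 and 13677 to 15527 counts, log2 changes of -0.52 in both (adjusted p = 7.67e-09 and 1.31e-08). Antisense and overlapping transcripts (TGFB2-AS1 and TGFB2-OT1) share exon sequence with TGFB2.

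TGFB3 encodes TGF-β3, the third isoform (chromosome 14, 75958097 to 75983011, minus strand), and was scarce. Its group means ran from 82.2 to 195 normalized counts in batch 1 and from 89.9 to 149.6 in batch 2. It was called in no comparison. Its lowest library, HIF-2α replicate 1 of batch 1, held 20.5, while the other HIF-2α libraries of that batch held 117 and 109. The log2 change from WT with HIF-2α was -0.52 ± 0.40 in batch 1 and -0.43 ± 0.21 in batch 2 (adjusted p = 0.448 and 0.111). 

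Because TGFB1 and TGFB2 moved apart, their ratio per length of exon was also taken in each library. It was 2.31 ± 0.114 in WT cells of batch 1, 23.9 ± 7.43 in HIF-2α libraries and 6.70 ± 1.26 in HIF-1α libraries (SD, n = 3). All other groups of the batch had a mean ratio between 3.50 and 5.05. WT cells of batch 2 had 1.69 ± 0.0679, HIF-2α 14.4 ± 2.95 and HIF-1α/2α 22.2 ± 1.08. HIF-1α and HIF-2α/1α had 3.96 ± 0.312 and 3.76 ± 0.389. These ratios combine the values already given and are not separate evidence.

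**Figure D2:**
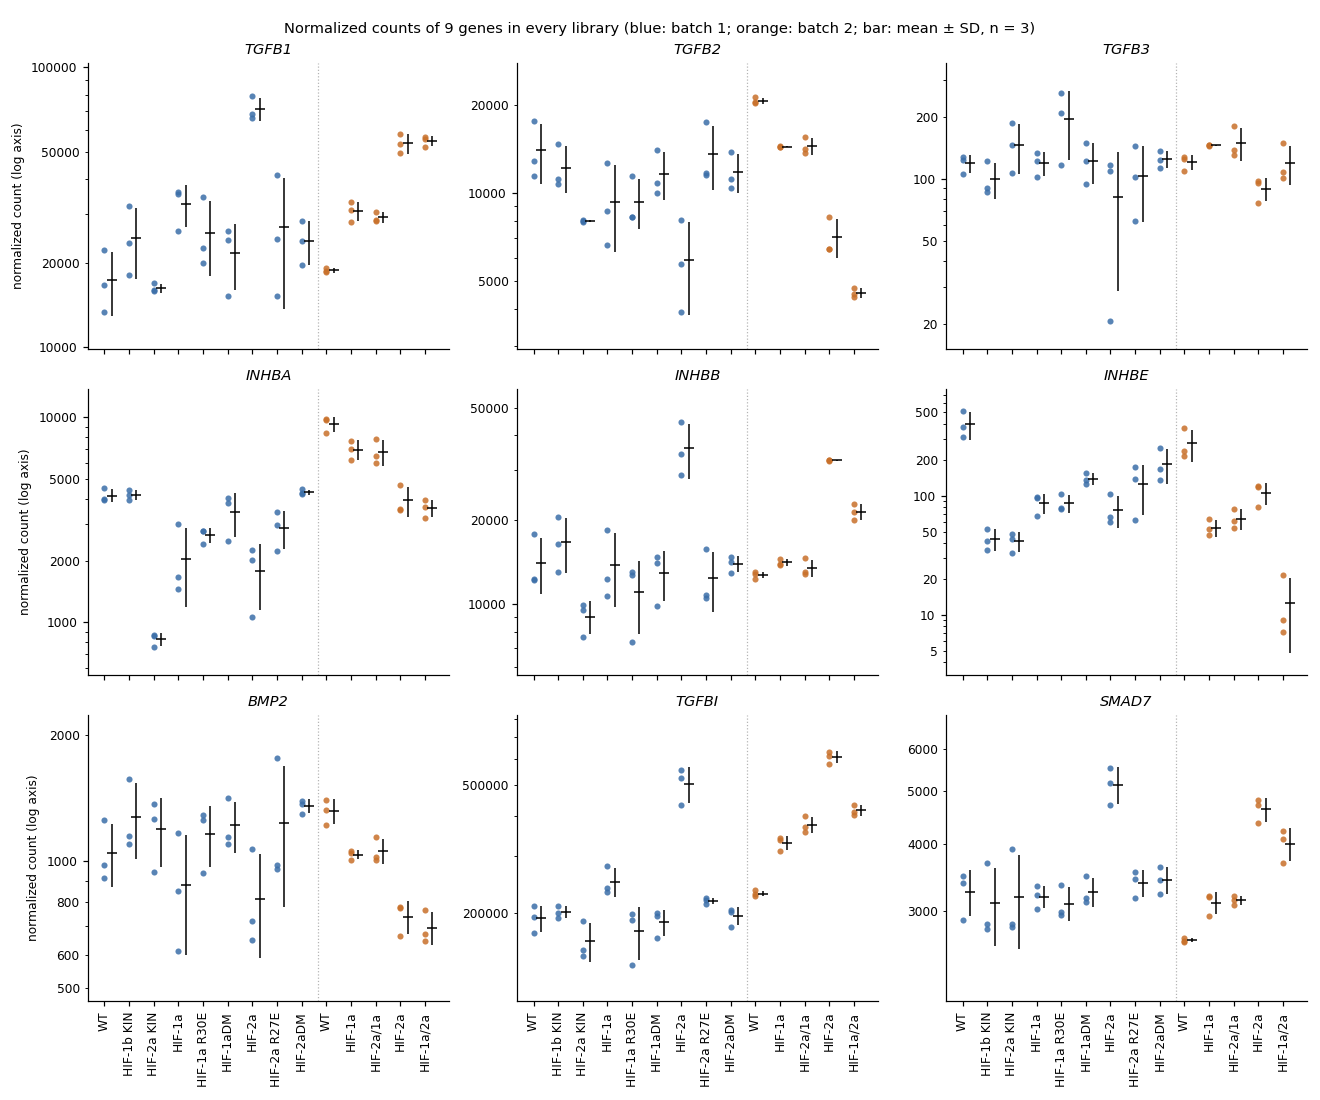
Normalized counts (log axes) of 9 genes in every library, with groups along the horizontal axis, batch 1 in blue and batch 2 in orange, and the mean ± SD of each group (n = 3) as a black bar beside its points. INHBB and TGFBI are highest in the HIF-2α lines of both batches, TGFB1 in HIF-2α of batch 1 and in HIF-2α and HIF-1α/2α of batch 2, while the WT libraries of INHBE (310 to 519 in batch 1, 217 to 368 in batch 2) lie above every other library of their batch.

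INHBA encodes the activin βA subunit, whose homodimer is activin A (chromosome 7, 41667168 to 41705834, minus strand). WT libraries of batch 1 held 3998, 3958 and 4502 normalized counts. HIF-2α KIN libraries held 867, 861 and 755, and HIF-2α libraries 1063, 2010 and 2264. Both groups lay wholly below WT and also below the HIF-1β KIN libraries, which had 3934 to 4432. The libraries of both DNA-binding mutants were wholly below WT too, with 2399 to 2784 in HIF-1α R30E and 2234 to 3435 in HIF-2α R27E. Neither mutant was called (-0.65 ± 0.24 and -0.53 ± 0.24, adjusted p = 0.138 and 0.6125). Over both batches, every library of the line was below WT in 9 of the 12 comparisons with WT, which hold HIF-1α and HIF-2α in each batch. The HIF-2α KIN clone had the largest change of this gene, -2.33 ± 0.25 (adjusted p = 2.94e-07), or 5.02-fold lower. EPAS1 was 2.35-fold lower in that clone (log2 change -1.23 ± 0.20), and its part in the INHBA value was not tested. The HIF-2α line had -1.22 ± 0.24 (adjusted p = 0.000824), and without its replicate 1 -0.96 (adjusted p = 0.00991), under 2-fold. The call in the HIF-1α line of batch 1 (1446, 1666 and 3020 counts, -1.02 ± 0.24, adjusted p = 0.00654) was at the edge: it was lost without WT replicate 1, 2 or 3 or HIF-1α replicate 1 or 2 (-0.82 to -1.06), with DESeq2 (-0.99), with RLE size factors (-0.99) and in a fit to these 2 groups alone (adjusted p = 0.0181).

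In batch 2, INHBA had 9777, 9682 and 8379 normalized counts in WT libraries, 3542, 3563 and 4677 in HIF-2α libraries and 3656, 3231 and 3930 in HIF-1α/2α libraries. Both lines were below WT in every library, with log2 changes of -1.24 ± 0.09 and -1.36 ± 0.09 (adjusted p = 5.90e-16 and 2.71e-17). HIF-1α and HIF-2α/1α had -0.42 ± 0.09 and -0.46 ± 0.09 (adjusted p = 0.000192 and 6.00e-05), which is under 2-fold. The antisense gene INHBA-AS1 shares exon sequence with INHBA.

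INHBB encodes the activin βB subunit, whose homodimer is activin B (chromosome 2, 120346136 to 120351803, plus strand, with no overlapping gene). It moved opposite to INHBA in the HIF-2α lines. Its normalized counts in batch 1 were 12269, 12216 and 17726 in WT libraries and 28767, 34384 and 44464 in HIF-2α libraries. No other library of the batch reached the lowest of these, the next being a HIF-1β KIN library with 20434. The change from WT was 1.35 ± 0.25 (adjusted p = 0.000314), or 2.55-fold. In batch 2 the WT libraries held 12795, 13001 and 12356, the HIF-2α libraries 32579, 32439 and 32653 and the HIF-1α/2α libraries 19923, 21300 and 22718. These 3 groups did not overlap, and HIF-1α/2α lay between the others. HIF-2α differed from WT by 1.36 ± 0.05 (adjusted p = 6.22e-25) and HIF-1α/2α by 0.74 ± 0.05 (adjusted p = 6.03e-16), the latter under 2-fold. The log2 change was 0.15 ± 0.05 for HIF-1α and 0.09 ± 0.05 for HIF-2α/1α (adjusted p = 0.0360 and 0.274).

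Per length of exon, INHBB exceeded INHBA by 8.69 ± 1.28 times in WT cells of batch 1, 55.0 ± 13.4 times with HIF-2α and 28.4 ± 5.48 times in the HIF-2α KIN clone (SD, n = 3). In the clone INHBA was called lower, while INHBB was not called (-0.64 ± 0.25, adjusted p = 0.104). In batch 2 the ratio was 3.55 ± 0.226 in WT cells, 21.8 ± 3.24 in HIF-2α libraries and 15.4 ± 1.52 in HIF-1α/2α libraries.

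INHBE encodes the activin βE subunit, a factor made mainly by the liver (chromosome 12, 57452323 to 57459280, plus strand). It was low in all groups and lower than WT in every line. The WT libraries of batch 1 held 519, 310 and 377 normalized counts. HIF-1β KIN libraries had 35.1 to 53.0, HIF-2α KIN libraries 32.8 to 48.2, HIF-1α libraries 67.1 to 97.4 and HIF-2α libraries 60.02 to 103. Even the highest library of any line, with 252 in HIF-2αDM, was below the lowest WT library. The changes from WT were -3.21 ± 0.35 and -3.27 ± 0.35 in the KIN clones (adjusted p = 6.19e-07 and 2.37e-07), 9.22-fold and 9.63-fold lower. HIF-1α, HIF-1α R30E and HIF-2α had -2.21 ± 0.33, -2.21 ± 0.33 and -2.38 ± 0.34 (adjusted p = 3.73e-05, 5.16e-05 and 9.68e-06).

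Within batch 1, both dimerization mutants and HIF-2α R27E came closest to WT in INHBE. HIF-1αDM libraries held 156, 137 and 126 normalized counts (-1.53 ± 0.32, adjusted p = 0.0129), and HIF-2αDM libraries 252, 135 and 168 (-1.12 ± 0.32, adjusted p = 0.123). With the replicate number as a block, which the libraries of HIF-1αDM and WT supported, HIF-1αDM passed (-1.50, adjusted p = 0.000540). HIF-2α R27E libraries held 174, 62.6 and 139 (-1.68 ± 0.32, adjusted p = 0.00488). That call was lost without WT replicate 1 (-1.47) or 3 (-1.73), without HIF-2α R27E replicate 2 (-1.37) or 3 (-1.76) and in a fit to the 2 groups alone (-1.69, adjusted p = 0.185). 

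WT libraries of batch 2 held 217, 239 and 368 normalized counts, HIF-1α 63.7, 46.5 and 52.1, HIF-2α/1α 78.1, 53.4 and 61.0, HIF-2α 121, 118 and 79.8, and HIF-1α/2α 9.12, 7.14 and 21.7. No line overlapped with WT, and HIF-1α/2α lay below all other libraries. Its change from WT was -4.44 ± 0.31 (adjusted p = 2.65e-16), or 21.7-fold lower. HIF-1α, HIF-2α/1α and HIF-2α had -2.34 ± 0.25, -2.10 ± 0.25 and -1.37 ± 0.24 (adjusted p = 4.24e-10, 6.27e-09 and 8.15e-06). All lines compared with WT had gone through gene editing or transgene integration, and a difference shared by all of them cannot be told apart from that. An antisense gene with no symbol shares exon sequence with INHBE.

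BMP2, a ligand of the BMP branch (chromosome 20, 6767686 to 6780246, plus strand), was not called in any comparison. Its normalized counts in batch 1 ran from 612 to 1761, and the libraries of all lines overlapped with WT except those of HIF-2αDM, which were all higher (0.37 ± 0.24, adjusted p = 0.741). In batch 2, WT libraries held 1222, 1328 and 1399, HIF-2α libraries 663, 778 and 773 and HIF-1α/2α libraries 646, 671 and 765. Both lines lay below WT without overlap, by -0.84 ± 0.09 and -0.93 ± 0.09 (adjusted p = 2.07e-10 and 1.31e-11), short of 2-fold. HIF-1α and HIF-2α/1α libraries were also all below WT, by -0.34 ± 0.09 and -0.31 ± 0.09 (adjusted p = 0.00290 and 0.00695). Without HIF-1α/2α replicate 3, the change in the HIF-1α/2α line reached -1.0003 and was called.

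FST encodes follistatin, which binds activins and blocks them (chromosome 5, 53480626 to 53487134, plus strand). It had 0 to 5 counts in any library of batch 1 and 0 to 13 in any of batch 2. With 3 counts taken as the floor, it was not reliably detectable at this depth in most libraries, and no fold change is given. SMAD7, an inhibitory SMAD that the TGF-β pathway induces (chromosome 18, 48919853 to 48950965, minus strand), had 3493, 2893 and 3383 normalized counts in WT libraries of batch 1 and 5182, 4719 and 5536 with HIF-2α. The HIF-2α libraries were above all others of the batch, the next being 3908 in a HIF-2α KIN library. SMAD7 differed from WT by 0.66 ± 0.14 in batch 1 and 0.80 ± 0.06 in batch 2 with HIF-2α (adjusted p = 0.00188 and 2.06e-14), and by 0.59 ± 0.06 with HIF-1α/2α (adjusted p = 1.71e-10), none of which reached 2-fold. In batch 2 the WT libraries had 2637 to 2678 normalized counts, HIF-2α 4364 to 4811 and HIF-1α/2α 3681 to 4233.

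TGFBI encodes a secreted matrix protein named for its induction by TGF-β (chromosome 5, 136028988 to 136063818, plus strand) and had the highest level of the set. In batch 1 its normalized counts were 209636, 173142 and 193532 in WT libraries and 552796, 431690 and 523054 in HIF-2α libraries. All other libraries of the batch, at 137834 to 278924, were below the HIF-2α libraries. The change from WT was 1.39 ± 0.17 (adjusted p = 1.50e-06), or 2.62-fold. In batch 2, WT libraries held 225296 to 234551, HIF-1α 311229 to 342071, HIF-2α/1α 356580 to 398281, HIF-1α/2α 401621 to 432021 and HIF-2α 578752 to 632109. The 5 groups did not overlap and stood in that order. HIF-2α differed from WT by 1.41 ± 0.05 (adjusted p = 3.75e-28), and HIF-1α/2α, HIF-2α/1α and HIF-1α by 0.86, 0.71 and 0.53 (each ± 0.05, adjusted p = 1.80e-20, 5.28e-17 and 4.67e-13), all under 2-fold.

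The first batch also allowed each transgene to be compared with its mutants of DNA binding and dimerization. Each construct was represented by a single stable line in this batch, so mutation, line and transgene level cannot be told apart. EPAS1 had 56676 ± 10267 and 48666 ± 5292 normalized counts in the HIF-2α R27E and HIF-2αDM lines and 44694 ± 6296 in the HIF-2α line (SD, n = 3), and was called in neither comparison. HIF1A, however, was called 4.29-fold and 4.72-fold higher in HIF-2α than in these mutants, and EPAS1 2.22-fold and 2.00-fold higher in HIF-1α than in HIF-1α R30E and HIF-1αDM, and their part in the results was not tested. Between HIF-2α and HIF-2α R27E, 4 of the 10 genes were called, where 3.63% of all genes were. INHBB, TGFBI and TGFB1 were higher with HIF-2α, by 1.54 ± 0.25, 1.21 ± 0.17 and 1.40 ± 0.29 (adjusted p = 0.000103, 1.71e-05 and 0.00167), and TGFB2 was lower by -1.20 ± 0.25 (adjusted p = 0.00182). TGFB1 lost its call without HIF-2α replicate 3 (1.30) or HIF-2α R27E replicate 1 (1.15) or 2 (1.36), and TGFB2 without HIF-2α replicate 1 (-0.98) or 2 (-1.18) or HIF-2α R27E replicate 3 (-0.98). Both also lost it in a fit to these 2 groups alone (adjusted p = 0.0233 and 0.0260).

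Between HIF-2α and HIF-2αDM, again 4 genes were called, at a background of 3.96%. TGFB1, INHBB and TGFBI were higher with HIF-2α, by 1.57 ± 0.29, 1.36 ± 0.25 and 1.36 ± 0.17 (adjusted p = 0.000451, 0.000383 and 2.76e-06), and INHBA was lower by -1.28 ± 0.24 (adjusted p = 0.000658). TGFB2 missed 2-fold with -0.99 ± 0.25 (adjusted p = 0.00899) and passed without HIF-2α replicate 3 (-1.28). INHBE had -1.26 ± 0.33 (adjusted p = 0.0123) and passed without that library too (-1.54), with DESeq2 (-1.21), with no filter on low counts (-1.24) and with the block (-1.24). None of the 10 genes was called between HIF-1α and HIF-1α R30E (1.75% of all genes) or between HIF-1α and HIF-1αDM (1.37%), with DESeq2 calling 0 in both and with 1 and 3 genes at an unadjusted p under 0.05, and INHBE differed by 0.00 ± 0.33 in the former pair. INHBA between HIF-1α and HIF-1αDM (-0.75 ± 0.24, adjusted p = 0.115) passed without HIF-1α replicate 3 (-1.15).

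The KIN clones were compared with each other as well. Only INHBA was called (2.45% of all genes), with -2.34 ± 0.25 in HIF-2α KIN against HIF-1β KIN (adjusted p = 4.31e-07). INHBE, which was low in both clones, differed by -0.06 ± 0.34 (adjusted p = 0.978).

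Direct comparison of the HIF-2α and HIF-1α lines gave 2 calls in batch 1, where 2.40% of all genes were called, and 2 in batch 2, where 3.78% were. In batch 1, INHBB and TGFBI were higher with HIF-2α, by 1.38 ± 0.25 and 1.01 ± 0.17 (adjusted p = 0.000542 and 0.000259). TGFBI was at the 2-fold limit and fell under it without HIF-1α replicate 2 or 3 or HIF-2α replicate 1 or 3 (0.94 to 0.98). TGFB1 differed by 1.13 ± 0.29 (adjusted p = 0.0155), and by 1.15 (adjusted p = 1.51e-05) with the replicate number as a block, which these libraries supported. DESeq2 (1.16), no filter on low counts (1.15), a fit to both groups alone (1.14) and the fit without the libraries numbered 3 (1.11) called it as well. In batch 2, INHBB was higher by 1.21 ± 0.05 (adjusted p = 9.56e-23) and TGFB2 lower by -1.03 ± 0.06 (adjusted p = 2.23e-17). TGFB2 fell short of 2-fold without HIF-2α replicate 1 or 2 (-0.97 for each). INHBE was higher by 0.97 ± 0.26 (adjusted p = 0.00372) and was called without HIF-1α replicate 1 (1.11) or HIF-2α replicate 3 (1.14).

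The 4 transgenic lines of batch 2 form a cross of structured domains and IDR, so that differences by domain could be taken as contrasts. Each construct was represented by 1 stable line in this batch, so domain, line and transgene level cannot be told apart. HIF1A was 44.9-fold, 32.8-fold, 33.2-fold and 3.18-fold above WT in HIF-1α, HIF-2α/1α, HIF-1α/2α and HIF-2α. EPAS1 was called 3.37-fold and 4.075-fold above WT in HIF-2α and HIF-1α/2α. It was also higher in HIF-2α/1α and HIF-1α, by less than 2-fold (log2 changes of 0.72 ± 0.06 and 0.37 ± 0.06). The domain swaps carry only part of each coding sequence, so these values are not comparable transgene levels. Exchanging the IDR of HIF-1α for that of HIF-2α, averaged over both structured parts, gave an adjusted p of at most 0.01 for 8 of the 10 genes but at least 2-fold for 1, TGFB2 (4.41% of all genes called). TGFB2 was lower by -1.35 ± 0.05 (adjusted p = 3.03e-27) with the HIF-2α IDR. TGFB1, INHBB, TGFBI and SMAD7 were higher with it, by 0.86 ± 0.04, 0.93 ± 0.04, 0.52 ± 0.03 and 0.46 ± 0.05 (adjusted p = 1.31e-22, 1.26e-24, 5.21e-18 and 1.31e-11). INHBA, BMP2 and TGFB3 were lower, by -0.87 ± 0.06, -0.55 ± 0.07 and -0.51 ± 0.14 (adjusted p = 9.58e-16, 1.77e-09 and 0.00427).

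Exchanging the structured domains of HIF-1α for those of HIF-2α gave 1 call, INHBE, higher by 1.66 ± 0.21 (adjusted p = 5.39e-08), where 1.04% of all genes were called. TGFBI, TGFB2 and INHBB differed by 0.37 ± 0.03, 0.32 ± 0.05 and 0.27 ± 0.04 (adjusted p = 2.19e-12, 6.35e-07 and 2.20e-07), and TGFB1 and INHBA by -0.05 ± 0.04 and 0.04 ± 0.06 (adjusted p = 0.426 and 0.744). In single pairs, HIF-1α/2α against HIF-1α called TGFB2 (-1.66 ± 0.07) and INHBE (-2.10 ± 0.33) lower, at 4.65% of all genes, and INHBA (-0.95 ± 0.09) passed 2-fold without HIF-1α replicate 2 (-1.02) or HIF-1α/2α replicate 3 (-1.01). HIF-2α against HIF-2α/1α called INHBB higher (1.27 ± 0.05) and TGFB2 lower (-1.03 ± 0.06), at 3.19%, and TGFB2 fell short of 2-fold without HIF-2α replicate 1 or 2 or HIF-2α/1α replicate 3 (-0.98 to -0.99). Lines with the same IDR were compared too. HIF-2α/1α against HIF-1α called none (0.543%; DESeq2 0, and 1 gene, TGFBI, at an unadjusted p under 0.05), with differences of -0.08 to 0.24 over the 9 genes other than FST. HIF-1α/2α against HIF-2α had 4 genes with an adjusted p of at most 0.01 and called INHBE (-3.07 ± 0.32, adjusted p = 2.60e-10) at 2.09%, and TGFB2, INHBB and TGFBI were lower there by less than 2-fold (-0.63, -0.61 and -0.55). The interaction of IDR and structured domains called 1 gene, INHBE (2.84 ± 0.42, adjusted p = 4.02e-06), where 1.18% of all genes were called.

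**Figure D3:**
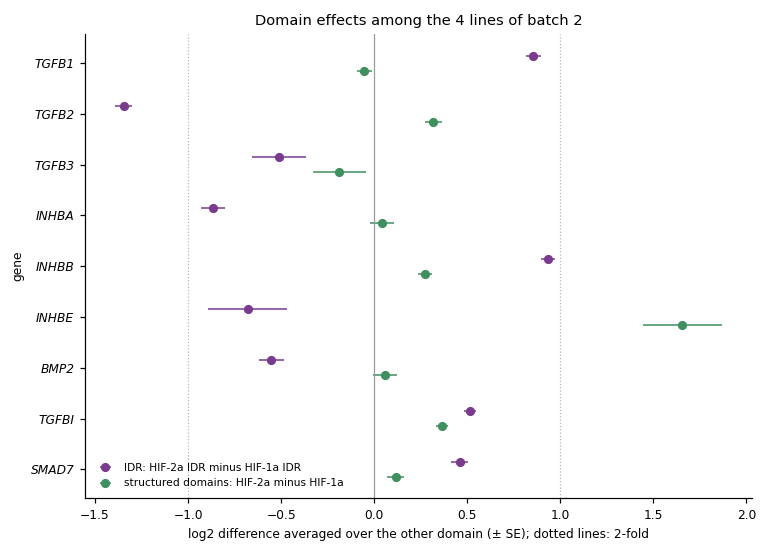
Contrasts among the 4 transgenic lines of batch 2 for 9 genes, as log2 differences ± SE, with the IDR of HIF-2α minus that of HIF-1α in purple and the structured domains of HIF-2α minus those of HIF-1α in green. For TGFB1, TGFB2, INHBA and INHBB the purple point is farther from 0 than the green one, and for INHBE the green point, at 1.66, lies past the dotted 2-fold line.

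Both batches held a HIF-1α and a HIF-2α line, so their effects could be set side by side, with separate WT libraries in each batch. Of the 6 genes called with HIF-2α, log2 changes were 2.03 and 1.51 for TGFB1, -1.24 and -1.55 for TGFB2, -1.22 and -1.24 for INHBA, 1.35 and 1.36 for INHBB, -2.38 and -1.37 for INHBE, and 1.39 and 1.41 for TGFBI in batches 1 and 2. A joint fit tested whether these effects differed between batches. It called none of the 10 genes for HIF-1α (0.00374% of all genes) or for HIF-2α (0%), with DESeq2 calling 0 as well, and at an unadjusted p under 0.05 there were 0 genes for HIF-1α and 3 for HIF-2α (TGFB1, INHBE and BMP2). The differences between batches were -0.66 ± 0.22 for TGFB1 (adjusted p = 0.265) and 0.87 ± 0.38 for INHBE (adjusted p = 0.422) with HIF-2α, which did not pass. The 1 gene called for HIF-1α was HIF1A itself, which was 12.5-fold above WT in batch 1 and 44.9-fold in batch 2.

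**Figure D4:**
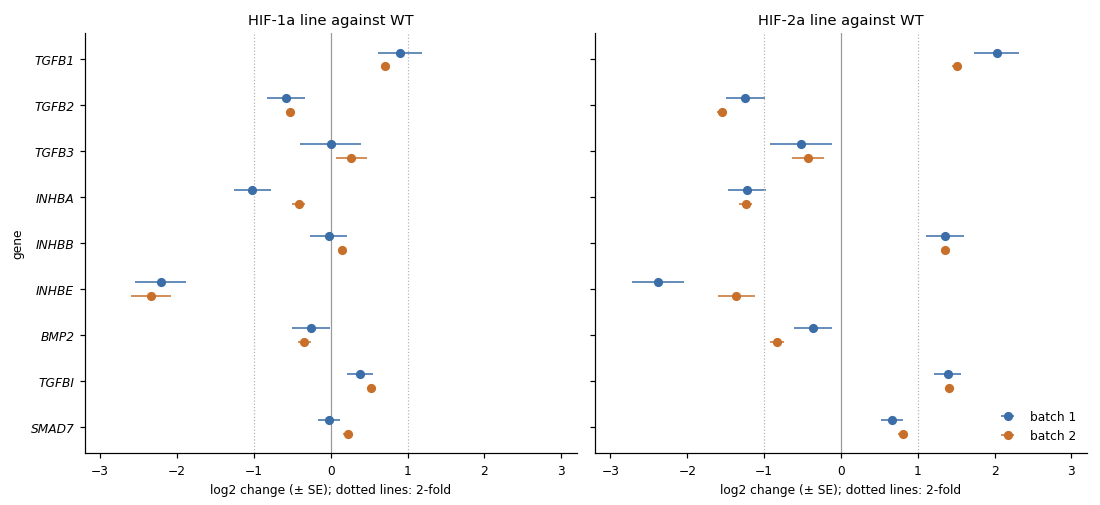
Fitted log2 change from WT ± SE of 9 genes in the lines expressing HIF-1α (left) or HIF-2α (right), batch 1 in blue and batch 2 in orange, with dotted lines at 2-fold. With HIF-2α the 6 called genes lie past the same dotted line in both batches, and the error bars of batch 1 are wider throughout.

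A list of 61 further genes of the pathway, drawn up by role, gave the setting for these 10. Of its genes 55 passed the filter on low counts in batch 1 and 58 in batch 2. With HIF-2α, 10 were called higher and 3 lower in batch 1, and 13 higher and 2 lower in batch 2. With HIF-1α, 8 and 10 were higher and none lower, and in the KIN clones 2 and 3 were higher and 3 and 2 lower (HIF-1β KIN and HIF-2α KIN). HIF-1α R30E had 7 higher and 1 lower, HIF-1αDM 2 higher, HIF-2α R27E 2 higher and 1 lower, HIF-2αDM 2 higher, HIF-2α/1α 11 higher and HIF-1α/2α 10 higher and 5 lower. Of all genes tested, 5.72% and 7.58% were called with HIF-2α, 3.79% and 4.39% with HIF-1α, 1.38% and 4.14% in the KIN clones, 2.61% with HIF-1α R30E, 0.457% with HIF-1αDM, 0.496% with HIF-2α R27E, 0.474% with HIF-2αDM, 3.49% with HIF-2α/1α and 7.78% with HIF-1α/2α. The list was drawn up with earlier results of these data known, so these counts are a description. Over the genes above the floor in both groups, the median log2 change with HIF-2α was 0.31 in batch 1 (52 genes) and 0.34 in batch 2 (50 genes). It was 0.31 and 0.27 with HIF-1α, 0.24 with HIF-2α/1α and -0.02 with HIF-1α/2α, and between -0.16 (HIF-2α KIN) and 0.20 (HIF-1α R30E) in the other lines of batch 1.

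Among extracellular binding proteins, NOG, which encodes the BMP antagonist noggin, moved in both directions. It was called lower in both KIN clones (-3.30 ± 0.51 and -2.80 ± 0.49). It was called higher in the HIF-2α lines (4.64 ± 0.43 in batch 1 and 4.46 ± 0.13 in batch 2), the HIF-1α lines (2.94 and 2.90), HIF-1α R30E (2.80), HIF-2α/1α (1.62) and HIF-1α/2α (7.08 ± 0.13). LTBP1, a latency protein that anchors TGF-β in the matrix, was called higher with HIF-2α (2.24 ± 0.29 and 1.88 ± 0.10) and HIF-1α/2α (2.99) and lower in the HIF-2α KIN clone (-2.63 ± 0.31) and the lines of both DNA-binding mutants (-1.45 for HIF-2α R27E, -1.82 for HIF-1α R30E). LTBP3, of the same family, was called higher in 9 of the 12 comparisons with WT, by 1.01 to 2.35. LTBP2 was called higher with HIF-1α (1.15 and 1.00) and HIF-1α R30E (1.19) and lower in HIF-1β KIN (-1.47). BMPER, a secreted BMP modulator, was called with HIF-2α (3.05 ± 0.40 and 3.27 ± 0.13) and HIF-1α/2α (2.99 ± 0.13). 

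Of the 13 receptors, TGFBR3, the co-receptor betaglycan, was called higher with HIF-1α (2.25 and 1.44) and HIF-2α (1.99 and 1.54) in both batches, and also with HIF-1α R30E (2.64), HIF-2αDM (2.02) and HIF-1α/2α (1.27). BMPR1B, a type I BMP receptor, was called lower with HIF-2α (-1.86 and -1.68) and HIF-1α/2α (-1.79). ENG, the co-receptor endoglin, was called higher with HIF-1α (1.92 and 1.79), HIF-1α R30E (2.75), HIF-2α R27E (1.52) and HIF-2α/1α (1.74), and not with HIF-2α (0.51 and 0.88). Among 14 SMADs and intracellular regulators, SMAD6, the inhibitory SMAD of the BMP branch, was called in HIF-1β KIN (1.30), HIF-1α R30E (1.13) and HIF-2α/1α (1.06). GDF15, the other ligand that met the rule for naming, was called higher in 9 of the 12 comparisons with WT, up to 3.42 ± 0.25 with HIF-1α R30E. It was not called in HIF-1β KIN (0.61), HIF-2α of batch 1 (0.48) or HIF-1α/2α (0.71).

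Among the other targets, ID2 (1.58 and 1.86) and COL1A1 (1.23 and 1.13) were called higher with HIF-2α in both batches and COL4A1 lower (-1.27 and -1.30). HIF-2α/1α also had ID2 (1.14) and COL1A1 (1.08) higher, HIF-1α of batch 1 COL1A1 (1.29) higher, and HIF-1α/2α COL4A1 (-1.65) lower. TAGLN was lower with HIF-2α in batch 1 (-1.27) and HIF-1α/2α (-1.35) and missed 2-fold with HIF-2α of batch 2 (-0.78), and ID1, a target of BMP signalling, was called higher in the HIF-2α KIN clone (1.44) and lower with HIF-1α/2α (-1.36). Targets thus included genes in both directions within the same line.

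For each of the 6 genes called in both batches, the genes with the most similar pattern were found by Pearson's r over the 12 log2 changes from WT, among 12461 genes. The 12 values are not independent, since lines of a batch share their WT libraries, and r is given as a description. TGFBI was most like GADD45B (0.988), MEGF6 (0.982) and PXN (0.980), and TGFB1 most like TENT5A (0.975), SHANK2 (0.973) and ARHGAP35 (0.971). TGFB2 was most like MAPKAPK2 (0.971), CREB3L2 (0.969) and AIFM2 (0.965). INHBA was most like MORF4L2 (0.970), DAW1 (0.964) and OGFOD1 (0.954). INHBB was most like CAMKK1 (0.970), TGFA (0.969) and FAM110A (0.966). INHBE had looser matches, with AC010618.3 (0.890), LINC00888 (0.887) and MRAS (0.886).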

How the data were processed

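Poly-A RNA of 42 libraries was sequenced by the authors, who deposited unnormalized read counts per gene for each library. Their processing notes name STAR 2.7, SAMtools 1.9 and HTSeq 0.11.1. Per the methods, uniquely mapped reads were counted without strand, in HTSeq's union mode, over GENCODE genes on hg38. In that mode, reads in stretches shared by overlapping or antisense genes are not assigned to any of them. Groups were taken from the sample titles. The members and the pathway list were chosen with earlier results of these data known.

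From the deposited counts, genes averaging under 0.5 normalized counts were removed and each batch was fitted on its own with edgeR 4.0.16 (R 4.3.3; TMM normalization, quasi-likelihood test, Benjamini-Hochberg adjustment over all genes), all groups sharing 1 estimate of the spread. A joint fit of WT, HIF-1α and HIF-2α libraries tested differences between batches. Named were all members, HIF1A, EPAS1, and the 3 genes most correlated with each member called in both batches. These 3 had to average 50 or more normalized counts in both batches. Pathway genes with the same minimum were named if called against WT in at least 1 line of each batch. A pathway gene that met this rule is not reported here by name. Normalized counts were scaled to the mean effective library size of the batch. Levels per kilobase used the union of exons in GENCODE v44. The alternatives were DESeq2 1.42.0, RLE size factors, no filter, a replicate block, fits to the compared groups alone, leaving out each library, and, chosen after seeing the data, leaving out the 9 libraries numbered 3 of batch 1.

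Replicate numbers came from the labels. In batch 1 libraries of the same number deviated together from their group means (mean correlation 0.244), with every pair over 0.1 in 8 of 14 comparisons. The mean for other numbers (-0.121) follows largely from centring each group and is no separate comparison. In batch 2 the mean for the same number was 0.00501, and every pair was over 0.1 in 0 of 9 comparisons. The labels do not say that replicates were separate cultures beyond calling them biological, so p-values measure the spread between these libraries. The tests were tried on data simulated for HIF-2α against WT. Of genes changed 2-fold and 4-fold, 30% and 90% were called in batch 1 (22890 genes). In batch 2 these shares were 52% and 100% (27883 genes). Genes changed exactly 2-fold can be estimated under 2-fold and are then not called. Changed genes were drawn from those averaging 50 or more normalized counts, and no shift shared by replicate number was simulated.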

Additional observations from a re-analysis of the deposited data

Results flagged for a closer look

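In batch 2, the effect of exchanging the HIF-1α IDR for the HIF-2α IDR differed between the 2 structured parts for 4 genes, by a tested interaction (edgeR's quasi-likelihood test, adjusted p of at most 0.01). The difference is the IDR effect with HIF-2α structured domains minus that with HIF-1α structured domains, on the log2 scale. INHBE differed by 2.84 ± 0.42 (SE, adjusted p = 4.02e-06): the IDR effect was -2.10 on HIF-1α structured domains and 0.74 on HIF-2α structured domains. For INHBB the difference was 0.67 ± 0.07 (adjusted p = 6.80e-09), with IDR effects of 0.60 and 1.27. TGFB2 differed by 0.62 ± 0.09 (adjusted p = 2.84e-06), with -1.66 and -1.03. TGFBI differed by 0.37 ± 0.06 (adjusted p = 4.86e-05), with 0.33 and 0.70. Of the 4, only INHBE reached 2-fold in this interaction, where 1.18% of all genes did so and passed. Domain, line and transgene level cannot be told apart in this contrast.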

How the results depend on the processing

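Of 46 calls among 280 tests of the 10 genes, 41 were kept under DESeq2, RLE size factors, no filter, the replicate block, fits to the compared groups and the set without the libraries numbered 3, and 37 also with each library left out in turn (17 of 24 in batch 1, 20 of 22 in batch 2). No value reversed. Leaving out 1 library gave 11 to 14 calls against WT in batch 1 (13 with all), 12 to 13 in batch 2 (12 with all), 9 to 11 between lines in batch 1 (11 with all), 8 to 11 in batch 2 (10 with all), and 0 for the difference between batches. For the pathway list the calls against WT were 46 in batch 1 (33 to 49) and 51 in batch 2 (48 to 52). In the fits with a replicate block these counts came to 14, 12, 14, 10 and 0, and 57 and 51 for the pathway list. The block added INHBE for HIF-1αDM against WT and TGFB1 for HIF-2α against HIF-1α in batch 1, where the pairing held, and TGFB2 (-1.03) and INHBE (-1.24) for HIF-2α against HIF-2αDM, where it did not; it changed no other call. Without the libraries numbered 3 of batch 1, an alternative chosen after seeing the data, TGFB1 was called for HIF-1α against WT (1.07), INHBA for HIF-2α against HIF-2α R27E (-1.06), TGFB2 for HIF-2α against HIF-2αDM (-1.14), TGFB1 for HIF-2α against HIF-1α (1.11) and the calls of TGFBI for HIF-2α against HIF-1α (0.92) and of INHBE for HIF-2α R27E against WT (-1.79, adjusted p = 0.0153) were lost; the cause was not tested. Batch 1 had wider errors than batch 2. In the simulated data, 38% of genes changed 2-fold passed the adjusted p threshold in batch 1 and 92% in batch 2.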
